A study of Mus musculus with 4 samples.

Results

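The keratins are the proteins of the intermediate filaments of epithelial cells, and 48 of the 18193 mouse genes measured on these arrays carried a keratin symbol (Krt followed by a number and at most 1 letter). A gene was counted where a probe set was annotated to exactly 1 such symbol, and 61 probe sets met that rule. Each gene was read from the 1 of its probe sets that was brightest on average over the arrays. All 48 genes were found by gene ID with the same symbol in RefSeq GRCm38.p6, 24 on chromosome 11 and 24 on chromosome 15. The RNA came from primary keratinocytes of newborn C57BL/6 mice on 4 Affymetrix arrays, with 1 array per group. The groups were p38a-KO cells 4 h after UVB at 75 mJ/cm2, unirradiated p38a-KO cells, WT cells 4 h after the same dose, and unirradiated WT cells. p38a is p38alpha, the MAP kinase of stress signalling that the gene Mapk14 encodes. The sample descriptions of the KO cells also carry the code K14C, whose meaning the labels do not state, and no label names a mock-treated control at 4 h.

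Keratin filaments are obligate heteropolymers in which an acidic type I keratin pairs with a basic type II keratin. In epidermis, basal cells make Krt5 and Krt14, and cells that leave the basal layer switch to Krt1 and Krt10. Krt6a, Krt6b, Krt16 and Krt17 are the stress keratins, which epidermis makes after wounding and which keratinocytes make in culture. Krt7, Krt8, Krt18, Krt19 and Krt20 belong to simple, single-layered epithelia, and a further large set builds hair, nail and the sheaths of the hair follicle.

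The promoter windows of 4 keratins are given because their genes stand for the patterns described below: Krt10 with a higher signal in KO-labelled cells, Krt23 and Krt7 with a lower one, and Krt5 with nearly the same signal on all arrays. Each run is the 250 bases before the transcription start, 5′ to 3′ on the gene's strand, from RefSeq GRCm38.p6. Capitals mark the letters ATAAA within the last 40 bases, extended to TATAAA where a T precedes them, and CCAAT, read as ATTGG on the other strand. The windows are chr11:99389365-99389614 on the minus strand for Krt10, chr11:99493121-99493370 on the minus strand for Krt23, chr15:101412153-101412402 on the plus strand for Krt7 and chr15:101712906-101713155 on the minus strand for Krt5.
Krt10: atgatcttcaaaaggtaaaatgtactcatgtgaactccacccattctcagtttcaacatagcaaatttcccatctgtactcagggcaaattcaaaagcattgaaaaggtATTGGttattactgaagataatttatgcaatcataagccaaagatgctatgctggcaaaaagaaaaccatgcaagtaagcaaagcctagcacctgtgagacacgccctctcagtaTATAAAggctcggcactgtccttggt
Krt23: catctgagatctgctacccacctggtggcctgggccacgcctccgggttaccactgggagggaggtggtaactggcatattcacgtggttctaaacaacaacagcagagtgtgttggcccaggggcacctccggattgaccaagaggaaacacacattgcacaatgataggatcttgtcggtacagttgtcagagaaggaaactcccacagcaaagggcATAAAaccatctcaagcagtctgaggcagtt
Krt7: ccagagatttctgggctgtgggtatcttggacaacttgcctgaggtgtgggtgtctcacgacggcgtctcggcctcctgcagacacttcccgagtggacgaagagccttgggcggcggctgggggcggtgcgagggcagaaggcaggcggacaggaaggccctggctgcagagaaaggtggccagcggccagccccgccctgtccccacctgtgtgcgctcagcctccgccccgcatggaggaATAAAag
Krt5: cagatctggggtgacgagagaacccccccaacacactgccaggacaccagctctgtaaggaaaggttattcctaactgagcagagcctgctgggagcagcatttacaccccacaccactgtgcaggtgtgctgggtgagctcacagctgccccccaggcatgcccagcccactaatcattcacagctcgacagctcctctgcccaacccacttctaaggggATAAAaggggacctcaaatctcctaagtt
The Krt10 TATAAA begins 26 bases upstream of the start, the Krt23 ATAAA 31, the Krt5 ATAAA 29 and the Krt7 ATAAA 7 bases upstream, while the CCAAT letters of Krt10 lie 141 bases upstream. On both strands, TATAAA was in 16 of the 32 keratin promoters that the table holds and in 13.0% of its 27025 promoters. Among the 13 measured keratins with a window, only 2 had it, Krt10 and Krt32. ATAAA within the last 40 bases, a motif that overlaps TATAAA and was chosen after the sequences were read, was in 21 of the 32 and in 8.69% of all promoters. CCAAT was in 13 of the 32 and in 34.5% of all promoters. Among the 13 measured keratins with a window, 7 had the ATAAA and 3 the CCAAT letters. TGANTCA, the letters of the AP-1 element, was in 1 of the 32, against 6.87% of all promoters, and in none of the 13 measured keratins with a window. A match is a description of these letters and not of a binding site.

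Values are MAS5 signal intensities on a linear scale, compared between arrays for 1 probe set at a time. A floor of 24.9 units, the median over probe sets of their mean signal, was set under all values, and a fold that involves a value below it is given as at least that fold. There are no replicates, so a pairwise difference has no error of its own, and precision is limited by the number of arrays. The median signal over the array was 18.7 units for irradiated and 34.5 for unirradiated KO-labelled cells, and 18.7 for irradiated and 30.3 for unirradiated WT cells, so most genes read lower after UVB. The brightest of 6 Mapk14 probe sets read 647 and 1449 units in KO-labelled cells with and without UVB, against 293 and 985 in WT cells. Only 1 of the 6 was lower in unirradiated KO-labelled than in unirradiated WT cells, and probes outside a deleted part would check nothing. All 8 non-keratin keratinocyte markers on the array were at or above the floor, and none of 5 endothelial markers was. All 9 fibroblast markers were at or above the floor, and their summed signal was 4245 and 6402 units in KO-labelled cells with and without UVB, against 2503 and 3266 in WT cells. In such RNA, fewer cells of a type and less RNA per cell cannot be told apart.

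By mean signal, 22 of the 48 keratins reached the floor. They were all 3 basal keratins, 5 of 6 suprabasal, all 4 stress and 3 of 5 simple-epithelial keratins, with 2 of 9 from the root sheath, companion layer and hair canal, 3 of 13 from hair and nail, and Krt23 and Krt42, which were in no list. None of 5 keratins of other stratified epithelia, such as Krt4 and Krt13 of mucosa, reached it. The 26 dim keratins had mean signals between 1.41 and 21.1 units, and 8 of them reached the floor on at least 1 array. At the boundary, Krt88 lay just inside at 30.6 units and Krt71, Krt4 and Krt19 just outside at 21.1, 20.8 and 20.7 units.

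**Figure D1:**
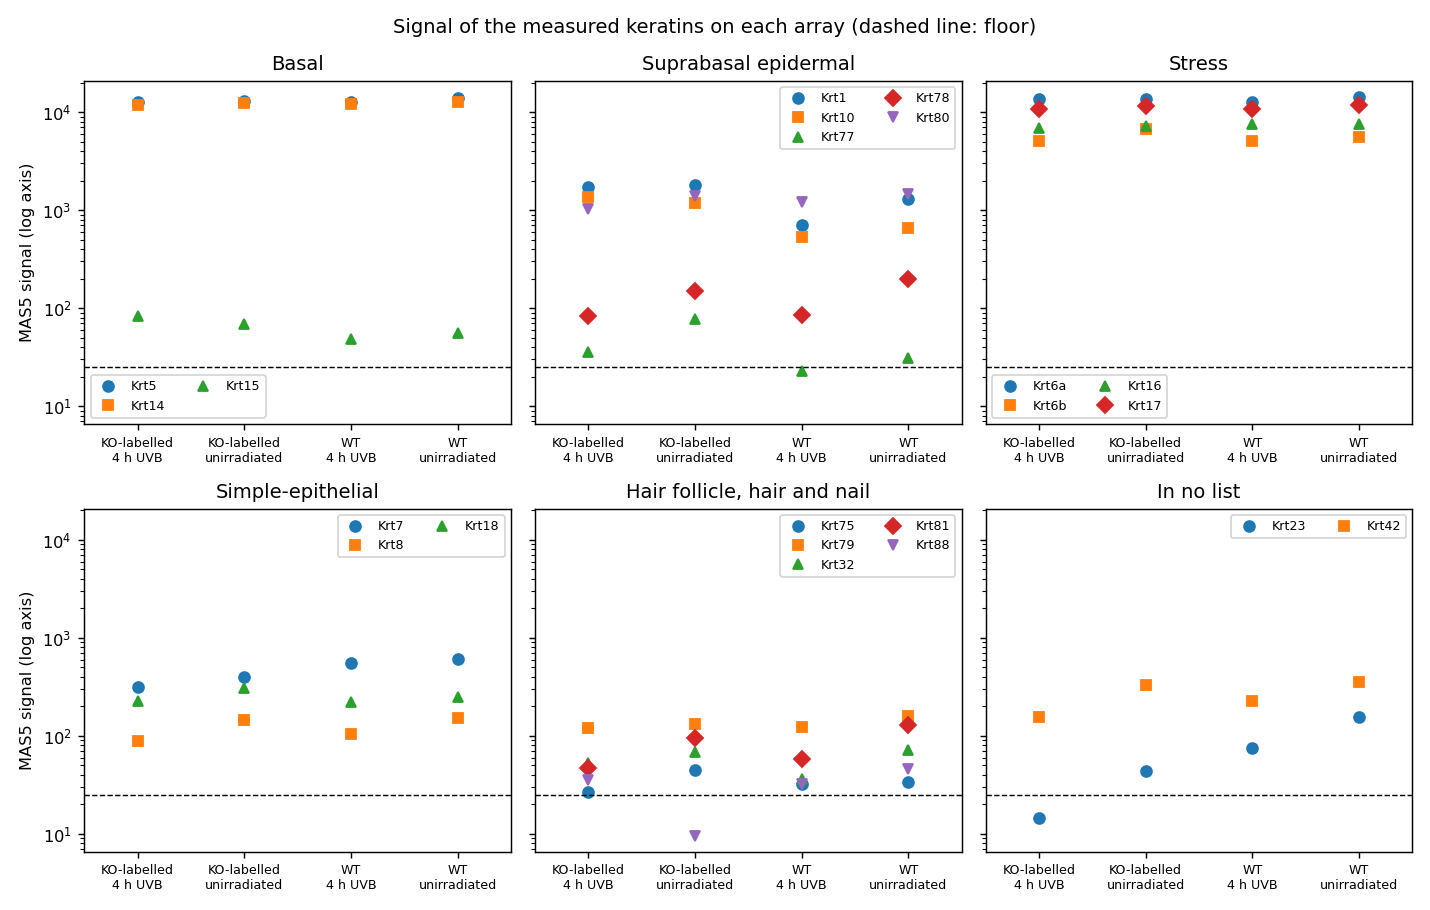
MAS5 signal (log axis) of each keratin measured at or above the floor, with 1 point per array and keratins grouped by class. The points of Krt5, Krt14, Krt6a and Krt17 lie above 10000 units on all 4 arrays and nearly overlap, while those of Krt1, Krt10, Krt23 and Krt77 spread apart.

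The basal keratins Krt5 and Krt14 were among the brightest genes and differed little between arrays. Krt5, the type II partner of the basal pair, read 12843 and 13104 units in irradiated and unirradiated KO-labelled cells, and 12614 and 13795 in irradiated and unirradiated WT cells. Krt14, its type I partner, read 11820 and 12320 units in irradiated and unirradiated KO-labelled cells and 11980 and 12588 in irradiated and unirradiated WT cells. On each pair of arrays both genes stayed within 0.13 on the log2 scale. Krt15, a further type I keratin of basal cells and of the hair follicle bulge, was far dimmer on its own probe set. It read 83.5 and 68.1 units in irradiated and unirradiated KO-labelled cells, and 47.9 and 56.0 in irradiated and unirradiated WT cells. Its signal was therefore higher after UVB in KO-labelled cells, with a log2 difference of 0.29, and lower in WT cells, with a log2 difference of -0.23. None of the 3 basal keratins passed the fit described below for UVB or for genotype, and none had an unadjusted p under 0.05 in it.

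The suprabasal pair Krt1 and Krt10 separated the genotypes. Krt1, the type II keratin of differentiating cells, read 1730 units in irradiated and 1814 in unirradiated KO-labelled cells, against 708 in irradiated and 1287 in unirradiated WT cells. Both KO-labelled values lay above both WT values, 2.44-fold higher after UVB and 1.41-fold higher without it. Krt10, its type I partner, read 1361 and 1170 units in irradiated and unirradiated KO-labelled cells, against 526 and 659 in irradiated and unirradiated WT cells. It too was higher in KO-labelled cells on both pairs of arrays, 2.59-fold after UVB and 1.77-fold without it. In WT cells, UVB went with a 1.82-fold lower Krt1 signal and a 1.25-fold lower Krt10 signal. In KO-labelled cells Krt1 was 1.05-fold lower and Krt10 1.16-fold higher after UVB. Krt1 and Krt10 are read from 1 probe set each.

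Of the other suprabasal keratins, Krt77 was also higher in KO-labelled cells on both pairs of arrays, and Krt78, Krt80 and Krt2 were not. Krt77, a type II keratin related to Krt1, read 35.4 and 77.8 units in irradiated and unirradiated KO-labelled cells, and 23.0 and 31.0 in irradiated and unirradiated WT cells. It was 2.51-fold higher in KO-labelled than in WT cells without UVB and at least 1.42-fold higher after it, close to the floor throughout. Krt78, a type II epidermal keratin, read 84.0 and 147.9 units in irradiated and unirradiated KO-labelled cells, and 85.2 and 196.5 in irradiated and unirradiated WT cells, so it differed by condition and hardly by genotype after UVB. Krt80, a type II keratin of differentiating cells, read 1025 and 1386 units in irradiated and unirradiated KO-labelled cells and 1204 and 1469 in irradiated and unirradiated WT cells, lower in KO-labelled cells on both pairs of arrays. Krt2, the type II keratin of the uppermost living layers, was below the floor on all arrays, at 1.12 and 1.76 units in irradiated and unirradiated KO-labelled cells and 10.8 and 11.4 in irradiated and unirradiated WT cells.

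The stress keratins were bright on every array, and on the probe sets used and the scaling as deposited none was higher after UVB in either genotype. After median centring all 4 rose in the limma fit described below, where 36.6% of all genes rose. After quantile normalization Krt16 was higher after UVB in both genotypes, by log2 differences of 0.07 in KO-labelled and 0.14 in WT cells. Krt6a, a type II keratin, read 13545 and 13589 units in irradiated and unirradiated KO-labelled cells, and 12754 and 14409 in irradiated and unirradiated WT cells. Krt16, its type I partner, read 6833 and 7289 units in irradiated and unirradiated KO-labelled cells and 7531 and 7545 in irradiated and unirradiated WT cells. Krt17, a type I keratin of wounded epidermis and hair follicle, read 10900 and 11517 units in irradiated and unirradiated KO-labelled cells and 10835 and 11708 in irradiated and unirradiated WT cells. These 3 genes differed by at most 0.18 on the log2 scale in any pairwise comparison. Krt6b, a close relative of Krt6a, read 5105 and 6809 units in irradiated and unirradiated KO-labelled cells, and 5051 and 5595 in irradiated and unirradiated WT cells, so the 2 irradiated arrays were alike and the unirradiated KO-labelled array was the highest. Probes of Krt6a and Krt6b, and of Krt14, Krt16 and Krt17, may share sequence, so that their separation on this array is uncertain.

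The simple-epithelial keratins were measured at moderate signal. Krt7, a type II keratin of simple and glandular epithelia, read 318 and 395 units in irradiated and unirradiated KO-labelled cells, against 558 and 605 in irradiated and unirradiated WT cells. Both KO-labelled values lay below both WT values, 1.76-fold lower after UVB and 1.53-fold lower without it. Krt8, the type II partner of Krt18, read 89.0 and 146.3 units in irradiated and unirradiated KO-labelled cells and 104.9 and 151.6 in irradiated and unirradiated WT cells, lower after UVB in both. Krt18 read 225 and 309 units in irradiated and unirradiated KO-labelled cells and 221 and 246 in irradiated and unirradiated WT cells, with the unirradiated KO-labelled array above the other 3. Krt19, a type I keratin without a tail domain, had 12.02 and 26.9 units in irradiated and unirradiated KO-labelled cells and 16.2 and 27.9 in irradiated and unirradiated WT cells. Krt20, known from intestine and Merkel cells, had 16.0 and 26.1 units in irradiated and unirradiated KO-labelled cells and 21.8 and 12.9 in irradiated and unirradiated WT cells. Of 5 Merkel cell markers, Sox2, Isl1, Piezo2 and Chga were below the floor by mean signal, and Atoh1 was above it. Atoh1 read 9.93 and 52.1 units in irradiated and unirradiated KO-labelled cells, and 14.9 and 53.5 in irradiated and unirradiated WT cells.

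Outside the 4 classes, Krt23 had the largest genotype difference of all 22 measured keratins. Krt23, a type I keratin, read 14.6 and 43.7 units in irradiated and unirradiated KO-labelled cells, against 74.5 and 153.9 in irradiated and unirradiated WT cells. Without UVB it was 3.52-fold lower in KO-labelled cells, and after UVB at least 2.99-fold lower. Krt42, a type I keratin gene, read 155 and 330 units in irradiated and unirradiated KO-labelled cells and 229 and 351 in irradiated and unirradiated WT cells. Krt81, a type II hair keratin, read 47.3 and 94.9 units in irradiated and unirradiated KO-labelled cells and 58.1 and 127.7 in irradiated and unirradiated WT cells. Both genes were lower on each irradiated array than on either unirradiated one. Krt32, a type I hair keratin, read 52.7 and 68.8 units in irradiated and unirradiated KO-labelled cells and 36.1 and 71.5 in irradiated and unirradiated WT cells. Its irradiated WT value was the lowest of the 4. Krt75, a type II keratin of the companion layer, read 26.9 and 45.0 units in irradiated and unirradiated KO-labelled cells and 32.1 and 33.6 in irradiated and unirradiated WT cells. Krt79, a type II keratin of the hair canal, read 119.1 and 133.4 units in irradiated and unirradiated KO-labelled cells and 123.5 and 159.7 in irradiated and unirradiated WT cells. Krt88 read 35.6 and 9.46 units in irradiated and unirradiated KO-labelled cells and 31.9 and 45.4 in irradiated and unirradiated WT cells. These 3 had no 2-fold difference once values were raised to the floor, which touched only the unirradiated KO-labelled value of Krt88.

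Most genes read lower on the irradiated arrays, and the keratins did so by less than the median gene. The median log2 difference of the 22 keratins was -0.35 in KO-labelled cells, against -0.82 over all 11379 genes at or above the floor, and -0.30 in WT cells, against -0.70 over all genes. In KO-labelled cells 3 keratins were higher and 19 lower after UVB, and in WT cells all 22 were lower. At least 2-fold lower were 3 in KO-labelled cells, Krt77, Krt81 and Krt42, where 39.3% of all genes were that much lower. In WT cells they were Krt78, Krt81 and Krt23, where 34.8% of all genes were. No keratin was at least 2-fold higher in either, against 0.167% of all genes in KO-labelled and 0.58% in WT cells.

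The smaller fall of the keratins stood beside their brightness. Over all genes, the median UVB difference was -1.03 in KO-labelled and -0.96 in WT cells for mean signals of 100 to 400 units, and -0.02 and -0.09 for signals above 6400 units. The 46 genes with a mean signal above 10000 units, among them Krt5, Krt14, Krt6a and Krt17, had UVB differences between -0.30 and 0.17 in KO-labelled cells and between -0.46 and 0.10 in WT cells. The highest signal of any probe set on an array was between 15210 and 16137 units, and whether the signal still follows the RNA level near it was not tested. Set against the median of genes of like brightness, the 22 keratins stood higher by a median of only 0.14 in KO-labelled and 0.13 in WT cells. Above that median were 13 of the 22 in KO-labelled and 14 in WT cells. Krt5 and Krt14 differed from it by at most 0.05. Krt10 stood above that median by 0.94 in KO-labelled and 0.30 in WT cells, and Krt1 stood 0.66 above it in KO-labelled cells and below it in WT cells (-0.24). Among the simple-epithelial keratins, Krt18 stood above it by 0.56 and 0.80 and Krt7 by 0.41 and 0.51 in KO-labelled and WT cells. Krt81 stood below it in both (-0.20 and -0.48), and Krt77 stood below it in KO-labelled cells (-0.33) and above it in WT cells (0.33).

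**Figure D2:**
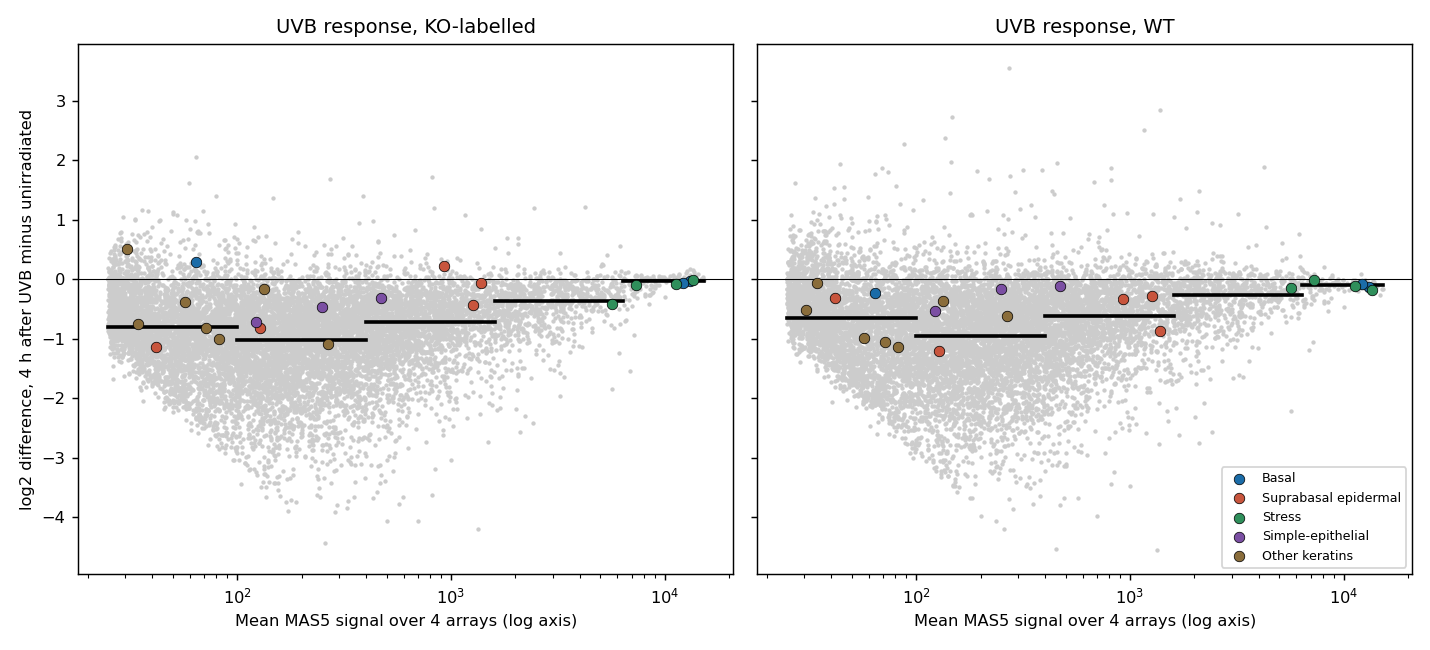
Log2 difference, irradiated over unirradiated, against mean signal over the 4 arrays (log axis) in KO-labelled and WT cells, with all measured genes in grey, the keratins in colour by class, and black bars at the median per range of signal. The grey cloud narrows and approaches 0 toward the brightest genes, where Krt5, Krt14, Krt6a and Krt17 lie, and Krt10 lies above the median in both genotypes.

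A limma model with irradiation and genotype as separate terms used all 4 arrays. It leaves 1 residual degree of freedom, so its p-values weigh an effect against how far the genotypes' UVB responses differ, with the spread pooled across genes, and not against replicate cultures. For UVB it called 9 of the 22 keratins lower and 0 higher, where 69.4% of all genes fell and 0.703% rose. At an unadjusted p under 0.05, 10 keratins were lower and 0 higher, against 8198 and 90 of all 11379 genes. The largest falls were a log2 effect of -1.07 ± 0.22 for Krt81 (SE, adjusted p = 0.00177), -1.01 ± 0.20 for Krt78 (adjusted p = 0.0014) and -0.93 ± 0.24 for Krt23 (adjusted p = 0.00615), whose irradiated KO-labelled value was raised to the floor. Krt42 fell by 0.85 (adjusted p = 0.00147), and Krt32, Krt8, Krt1, Krt80 and Krt6b fell by 0.69, 0.62, 0.47, 0.36 and 0.28 on the log2 scale. Without the intensity trend the calls of Krt1, Krt80 and Krt6b were absent, and with only the tested term 4 keratins fell. By class, 3 of 5 suprabasal, 1 of 4 stress, 1 of 3 simple-epithelial and 0 of 3 basal keratins fell. These directions rest on the arrays' scaling as deposited. After quantile normalization Krt10, Krt15, Krt18, Krt7 and Krt79 rose and 0 fell, with 20.2% of all genes rising. After centring each array on its median 14 keratins rose and 0 fell, with 36.6% of all genes rising and 14.9% falling.

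**Figure D3:**
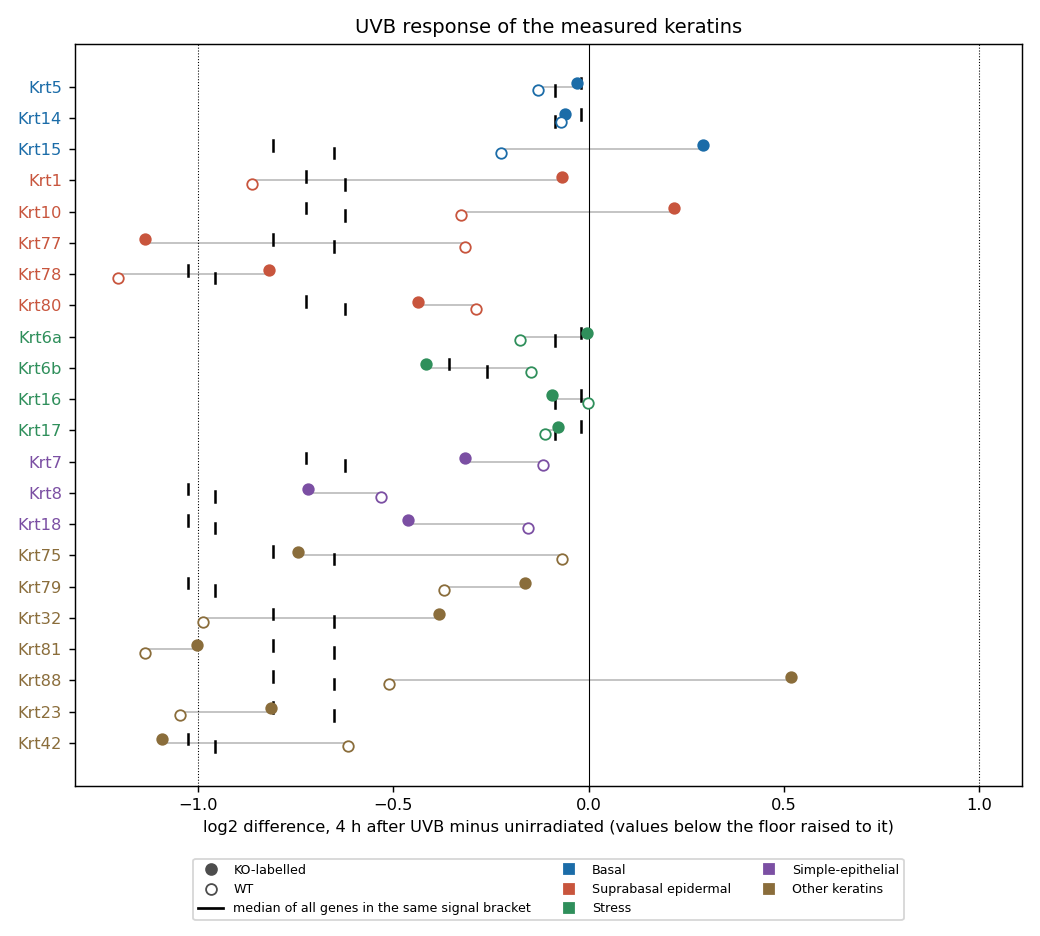
Log2 difference of each measured keratin, irradiated over unirradiated, with a filled point for KO-labelled and an open point for WT cells, coloured by class, and a black tick at the median of all genes of the same range of signal. Krt5 and Krt14 lie at their ticks, Krt7, Krt8 and Krt18 lie to the right of theirs, and Krt10, Krt15 and Krt88 have points on both sides of 0.

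Between genotypes the keratins differed in both directions. Without UVB 7 were higher and 15 lower in KO-labelled than in WT cells, with a median log2 difference of -0.05, against 0.16 over all genes. Of all 11379 genes, 8316 were higher and 3050 lower in that comparison. After UVB 11 keratins were higher and 11 lower, with a median of -0.01, against 0.05 over all genes, of which 6356 were higher and 4310 lower. At least 2-fold different without UVB were Krt77, which was higher, and Krt23, which was lower, where 1.63% of all genes were higher and 0.729% lower by that much. After UVB, Krt1 and Krt10 were at least 2-fold higher and Krt23 lower, where 1.41% of all genes were higher and 1.47% lower.

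The limma fit called 4 of the 22 keratins for genotype. Krt10 rose in KO-labelled cells by a log2 effect of 1.10 ± 0.14 (SE, adjusted p = 0.00698) and Krt1 by 0.89 ± 0.17 (adjusted p = 0.036). Krt23 fell by 1.70 on the log2 scale, with 1 value raised to the floor (adjusted p = 0.00923), and Krt7 fell by 0.71 (adjusted p = 0.0347). Over all genes 0.967% rose and 0.642% fell. The 4 directions were the same on both pairs of arrays, which a call in this fit requires, so that is no further support. On the probe sets used, the other measured simple-epithelial keratins, Krt8 and Krt18, were not called, with effects of -0.14 and 0.18. Other Krt8 probe sets were lower in KO-labelled cells by more, as given below. All 4 calls, and every genotype call over all genes, were absent when the fit used no intensity trend or only the tested term, and the Krt1 call was absent after median centring. Fibroblast marker levels moved with the same contrast: 9 of 9 were higher in KO-labelled cells after UVB and 8 of 9 without it, with median log2 differences of 0.80 and 0.83. Melanocyte markers were higher too, 6 of 7 after UVB and 7 of 7 without it, with medians of 0.26 and 0.55. Their summed signal was 5620 and 8582 units in KO-labelled cells with and without UVB, against 4823 and 6148 in WT cells. Of all 11379 genes, 8316 were higher in KO-labelled cells without UVB and 6356 after it. Of 8 non-keratin keratinocyte markers, 4 were higher without UVB and 3 after it. In each comparison 3 of 6 measured hair follicle, 2 of 3 sebocyte, 0 of 3 leukocyte and 0 of 1 Merkel cell markers were higher. The part of the fibroblast or melanocyte markers in the keratin differences was not tested.

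**Figure D4:**
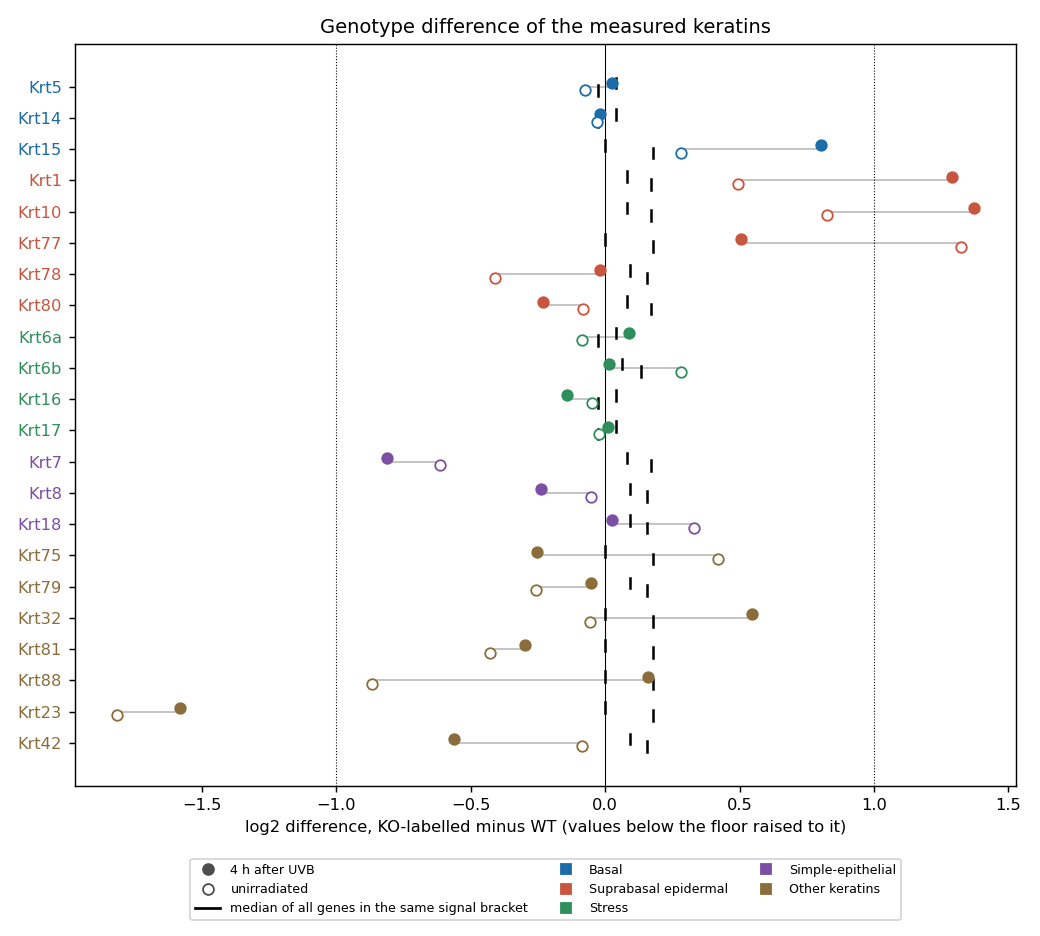
Log2 difference of each measured keratin, KO-labelled over WT, with a filled point for irradiated and an open point for unirradiated cells, coloured by class, and a black tick at the median of all genes of the same range of signal. Krt1 and Krt10 lie to the higher side and Krt7 and Krt23 to the lower side with both points, while Krt5, Krt14, Krt6a, Krt16 and Krt17 lie near 0 and the basal keratin Krt15 lies to the higher side.

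Whether the UVB response itself differed between genotypes has no test with 1 array per group. The response of KO-labelled cells minus that of WT cells had a median of 0.07 on the log2 scale over the keratins, against -0.08 over all genes. It was 0.79 for Krt1, 0.54 for Krt10 and 0.52 for Krt15, against -0.82 for Krt77 and -0.68 for Krt75. Krt5, Krt14, Krt16 and Krt17 stayed within 0.10 of 0.

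Where a gene had several probe sets, they did not always read alike. Krt14 had 2 bright probe sets, with UVB differences of -0.06 and 0.03 in KO-labelled and -0.07 and -0.25 in WT cells, and another that was dim. The dim probe set read 10.8 and 117.3 units in irradiated and unirradiated KO-labelled cells, and 9.96 and 89.4 in irradiated and unirradiated WT cells. It was thus at least 4.71-fold lower after UVB in KO-labelled cells and at least 3.59-fold lower in WT cells. For Krt17, a second probe set read 168 and 290 units in irradiated and unirradiated KO-labelled cells and 274 and 246 in irradiated and unirradiated WT cells, lower after UVB in one genotype and higher in the other. One of the 3 bright Krt6a probe sets was 1.09-fold higher after UVB in KO-labelled cells. For Krt42, a second, dimmer probe set read 36.04 and 52.1 units in irradiated and unirradiated KO-labelled cells, against 106.6 and 117.9 in irradiated and unirradiated WT cells. It was 2.96-fold lower in KO-labelled cells after UVB and 2.26-fold lower without it, against 1.48-fold and 1.06-fold lower on the probe set used. The 3 probe sets of Krt8 were lower after UVB in both genotypes. They were also lower in KO-labelled than in WT cells on both pairs of arrays. After UVB the Krt8 probe set used was 1.18-fold lower in KO-labelled cells, and the others were 1.92-fold and 1.57-fold lower. Without UVB it was 1.04-fold lower, and the others were 1.23-fold and 1.34-fold lower. Which transcript the dim probe sets read is not given in the sources used here.

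**Figure D5:**
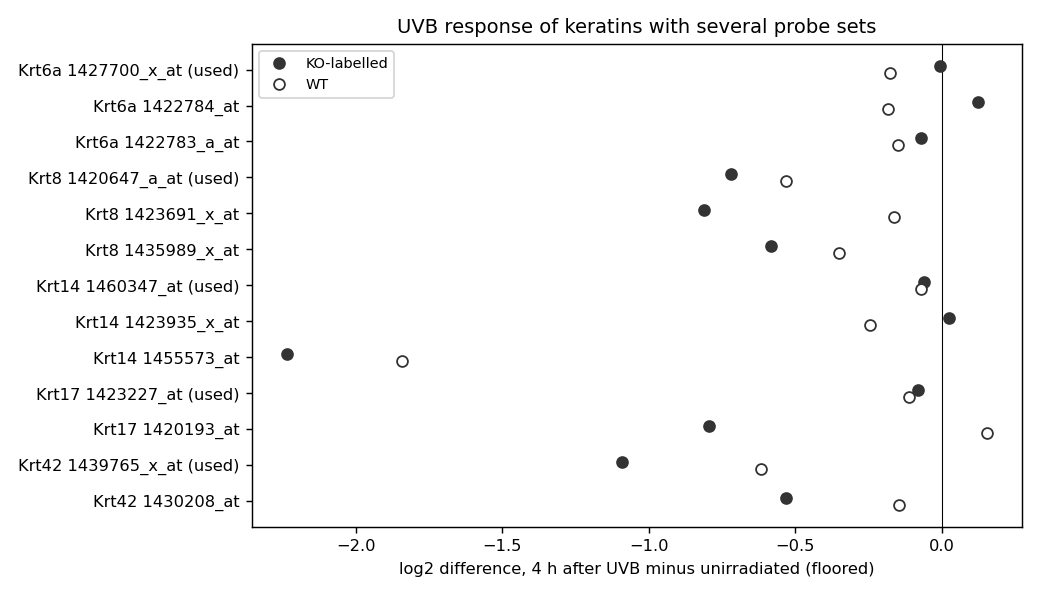
Log2 difference, irradiated over unirradiated, for each probe set of the keratins that have several, with a filled point for KO-labelled and an open point for WT cells, and the probe set used for each gene marked. The bright probe sets of Krt14, Krt6a and Krt17 lie within 0.25 of 0, and the dim Krt14 probe set lies lowest.

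Keratin filaments are anchored at desmosomes and hemidesmosomes, bundled by filaggrin, and their genes are controlled by p63. Of 14 measured genes of this list, 12 fell after UVB in the limma fit (69.4% of all genes did) and 0 rose. The counts were the same at an unadjusted p under 0.05, where 8198 of all 11379 genes were lower and 90 higher. Trp63, which encodes p63, a factor that drives Krt5 and Krt14, read 236 and 1931 units in irradiated and unirradiated KO-labelled cells, and 150 and 1676 in irradiated and unirradiated WT cells. It fell by 3.26 on the log2 scale, and it still fell by 2.46 after quantile normalization and by 2.16 after centring. With the mean over its probe sets it fell by 2.45. Fam83h, a scaffold that binds keratin filaments, fell by 1.33 and Pkp2, a desmosomal plaque protein, by 0.99. The Fam83h effect was -0.52 after quantile normalization and -0.23 after centring, and the Pkp2 effect changed sign, to 0.10 and 0.11. With the mean over probe sets the Fam83h effect was -0.81. After quantile normalization 6 of the 14 fell and 1 rose, where 2284 of all 11418 genes fell and 20.2% rose. After centring 1 fell and 7 rose, where 14.9% of all genes fell and 36.6% rose. For genotype 0 of 14 passed, where 0.967% of all genes rose and 0.642% fell. At an unadjusted p under 0.05, 2 of the 14 were higher and 3 lower, against 1559 and 426 of all 11379 genes. The largest genotype effects were a lower Flg, the filaggrin gene (log2 effect -0.91, with 1 array below the floor, adjusted p = 0.152), a higher Trp63 (0.43) and a higher Eppk1 (0.32), which encodes epiplakin. With the mean over probe sets the Trp63 genotype effect was only 0.03.

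Of 7 measured genes for other intermediate filaments, 5 fell after UVB and 0 rose, a share near the 69.4% of all genes that fell. The counts were the same at an unadjusted p under 0.05, where 8198 of all 11379 genes were lower and 90 higher. Nes (nestin) fell by 1.08, and the lamin genes Lmnb1 and Lmnb2 fell by 0.75 and 0.66. Their effects were -0.06, 0.19 and 0.42 after quantile normalization, and 0.02, 0.35 and 0.44 after centring. After quantile normalization 2 of the 7 rose and 0 fell (20.2% of all genes rose, and 2284 of 11418 fell), and after centring 3 rose and 0 fell (36.6% of all genes rose and 14.9% fell). Vim, the vimentin gene of mesenchymal cells, was the 1 of the 7 called for genotype. It read 1212 and 1584 units in irradiated and unirradiated KO-labelled cells, against 749 and 862 in irradiated and unirradiated WT cells, and rose by 0.79 ± 0.11 (SE, adjusted p = 0.01). The call was absent without the intensity trend, at an adjusted p = 0.288. The next largest genotype effects were -0.64 for Des (desmin) and 0.43 for Lmnb2, neither of which passed. With the mean over probe sets the Lmnb2 effect was 0.19.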

How the data were processed

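RNA from 4 cultures was hybridised to Affymetrix arrays after 3' in vitro transcription labelling, per the labels' protocols. The authors summarised each array with MAS5, per the submitters' processing notes, and deposited 1 linear signal intensity for each probe set. Neither the MAS5 version nor its scaling target is given in the sources used here.

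Groups came from the genotype and stress labels. Of 45101 probe sets, 64 controls and those with several symbols or none were left out. The brightest probe set by mean signal stood for each gene, values were floored at 24.9 units, and log2 differences were taken (Python 3.11.15). The additive model was fitted with limma 3.58.1 in R 4.3.3 on 11379 genes, with an intensity trend and Benjamini-Hochberg adjustment at 0.05. On simulated arrays it recovered 62 of 100 UVB and 50 of 100 genotype effects of 1 on the log2 scale. Of effects of 2 it recovered 98 and 97 of 100. Those arrays held far fewer changed genes than were called here for UVB, and no UVB response that differed by genotype. The members, classes, partner and marker lists were chosen with earlier results of these data known. Named are all keratins of the 4 classes, other measured keratins with a 2-fold difference or in no list, and the 3 largest limma effects of the partner and other filament lists. Krt75, Krt79 and Krt88 were named after their values were seen. Promoters were matched by symbol for 32 of 48 keratins. Alternatives covered scaling, floor, fold threshold, probe set choice and the limma model. Nothing in the sources used here says that the arrays came from separate animals.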

Additional observations from a re-analysis of the deposited data

Results flagged for a closer look

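The UVB difference had opposite signs in KO-labelled and WT cells for 3 keratins, and the difference of the responses was not tested. Krt15 differed by 0.29 in KO-labelled and -0.23 in WT cells on the log2 scale, a difference of responses of 0.519. Krt10 differed by 0.22 in KO-labelled and -0.33 in WT cells, a difference of 0.544. Krt88 differed by 0.52 in KO-labelled and -0.51 in WT cells, a difference of 1.03, with its unirradiated KO-labelled value below the floor.

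The genotype difference had opposite signs after and without UVB for 6 keratins, which was not tested either. The difference between the 2 log2 differences was 0.10 for Krt5, 0.171 for Krt6a and 0.0324 for Krt17, all of them bright genes with small differences. It was -0.676 for Krt75, 0.603 for Krt32 and 1.03 for Krt88, which are dim.

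A probe set annotated to both Krt17 and Krt14 was used for neither gene. It read 61.5 and 110.2 units in irradiated and unirradiated KO-labelled cells, against 57.7 and 57.5 in irradiated and unirradiated WT cells, so the unirradiated KO-labelled array stood above the others.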

How the results depend on the processing

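No paired analysis was possible because no group has numbered replicates; the additive fit already compares irradiated with unirradiated arrays within each genotype, and leaving out an array leaves no residual degree of freedom. The tolerance was 0.25 on the log2 scale. Of the single pairwise differences under all alternatives, 382 kept their value within it, 93 moved and 5 changed sign after passing 2-fold. Of the single limma effects, 58 kept their call, 22 lost it and 15 changed sign. For none of these changes was the cause tested.

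Quantile normalization gave median UVB differences of 0.20 in KO-labelled and 0.17 in WT cells, 2 keratins at least 2-fold higher and 0 lower in KO-labelled cells, 0 lower in WT cells, and 5 rising and 0 falling in limma. Keratins above 0 then numbered 14 in KO-labelled and 13 in WT cells, against 3 and 0 as deposited. Of those past 2-fold or called in limma, signs changed for Krt81 in KO-labelled (0.10) and Krt23 in WT cells (0.0163), and for the UVB effects of Krt1 (0.0934), Krt32 (0.34), Krt42 (0.12), Krt78 (0.0781), Krt8 (0.47), Krt80 (0.19) and Krt81 (0.0119). Median centring gave medians of 0.78 and 0.76, 9 higher and 0 lower in KO-labelled cells, 2 higher and 0 lower in WT cells, 14 rising and 0 falling in limma, and 1 rising for genotype. Of all genes, 36.6% rose and 14.9% fell for UVB in limma, and 0.569% rose for genotype. Keratins above 0 numbered 20 in each genotype. Of those past 2-fold or called, signs changed for Krt42 (0.0385) and Krt81 (0.13) in KO-labelled and Krt23 (0.0229) in WT cells, and for the UVB effects of Krt1 (0.63), Krt32 (0.41), Krt42 (0.25), Krt6b (0.82), Krt78 (0.0887), Krt8 (0.48), Krt80 (0.74) and Krt81 (0.0311). The median UVB difference over all genes was then 0.06 in KO-labelled and 0.05 in WT cells after quantile normalization, and 0.28 and 0.32 after centring.

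A floor of 9.38 units brought the measured keratins from 22 to 33. Of the 33, 2 were at least 2-fold higher and 8 lower after UVB in KO-labelled cells, and 5 lower in WT cells. Between genotypes without UVB, 4 were higher and 4 lower. A floor of 128.9 units left 13 measured keratins, with a median UVB difference of -0.0795 in KO-labelled cells. Of the 13, 1 was at least 2-fold lower after UVB in KO-labelled and 0 in WT cells. Between genotypes 0 were higher and 0 lower without UVB, and 0 lower after it. In limma 4 fell for UVB and 1 for genotype. The mean over probe sets gave 2 lower between genotypes after UVB. Leaving out probe sets with the suffix _x_at, _s_at or _a_at left 19 measured keratins. Krt7, Krt8 and Krt10, which are read only from such probe sets, were then absent. Between genotypes this gave 2 lower without UVB, 1 higher and 2 lower after it, and 1 rising in limma. Without the intensity trend 0 rose and 0 fell for genotype, and with only the tested term 0 rose and 0 fell for genotype and 4 fell for UVB. At 1.5-fold, 7 of the 22 were lower after UVB in KO-labelled and 6 in WT cells. Between genotypes, 2 were higher and 3 lower without UVB, and 2 lower after it. At 3-fold, 0 were lower after UVB in either genotype, 0 higher between genotypes without UVB, and 0 higher and 0 lower after it. The share over all genes was not computed at these floors and fold thresholds.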
